A study of Mus musculus with 12 samples.

Results

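Smooth muscle cells of the uterine wall and its arteries shorten by sliding actin and myosin filaments past each other, and the genes for that apparatus serve as the standard markers of the cell type. Calcium entering the cell activates a kinase that phosphorylates the myosin light chain, while calponin, caldesmon and tropomyosin sit on the actin filament. Most of these genes are driven by the serum response factor SRF, which binds a short promoter motif called the CArG box, with its co-activator myocardin. The 10 genes described here are Acta2, Actg2, Tagln, Myh11, Cnn1, Des, Mylk, Synpo2, Cald1 and Lmod1. They were chosen by name, and all 10 were found among the 22294 genes of the table, each with 1 row.

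Their levels were read in RNA from F4/80-positive cells that had been sorted with magnetic beads from digested mouse endometrium, a preparation labelled as macrophages. The 12 libraries formed 4 groups of 3. Mice of the primed MSC group carried a model of intrauterine adhesion (IUA), scarring that closes the uterine cavity, and received human umbilical cord mesenchymal stromal cells primed with inflammatory cytokines. Mice of the control MSC group had the same model and received unprimed cells, those of the IUA group had the model alone, and Sham mice had a sham operation. Sample names of the IUA group alone carry the word Matrigel, so an effect of Matrigel cannot be told apart from the other differences between IUA and the remaining groups. Strain, age and whether a library came from 1 animal or a pool are not given in the labels, and every p-value reflects how far these libraries spread, which may be technical.

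Levels are given in FPKM, fragments scaled to transcript length and to the library's mapped fragments, as the authors deposited them. Their sums ran from 505459.9 to 563751.0 per library. The sequencing depth behind them is unknown. Against the macrophage label, 12 macrophage markers were measured. They took 6.10 to 6.39 percent of the summed FPKM in primed MSC libraries, 5.99 to 6.47 percent for control MSC, 5.65 to 6.23 percent for IUA and 2.15 to 2.63 percent for Sham, beside the markers of other cell types given further on. Genes called higher or lower had a Benjamini-Hochberg adjusted p under 0.05 in limma, taken over the 11604 genes that reached FPKM 1 in 3 or more libraries. All 10 members were among those tested, and limma's F test over the 4 groups passed for each of them, as it did for 67.0 percent of the genes tested.

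The CArG box is shown because it is the element these genes are known for sharing. RefSeq promoter windows of GRCm38.p6, from 250 bases before to 50 bases after a start, were at hand for 7 members (8 windows). No window held the CArG box itself, which 1.63 percent of all 32851 windows held. A CArG-like box, in which 1 of the inner bases is G or C, was found in 8.50 percent of all windows and in that of Acta2, where it occurred at 2 places, 84 and 34 bases before the RefSeq start. The stretches below lie on the minus strand at chr19:34255438-34255467 and chr19:34255388-34255417, within an Acta2 exon of the GENCODE annotation, which puts the gene's start further upstream. They are written 5′ to 3′ with the box in capitals. Box letters read the same motif on either strand, and a match in the sequence is not evidence of binding.
Acta2, 84 bases before the start: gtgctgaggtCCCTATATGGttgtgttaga
Acta2, 34 bases before the start: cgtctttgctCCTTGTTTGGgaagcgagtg

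All 10 genes were detected in every library. Sham replicate 1 held the highest value of each of the 10 genes, and the lowest was in control MSC replicate 3 for 8 genes and in control MSC replicate 1 for Actg2 and Des. Together the genes took 0.0302, 0.0503 and 0.0469 percent of the summed FPKM in the primed MSC libraries, 0.0386, 0.0397 and 0.0206 percent in control MSC, 0.0714, 0.0579 and 0.0661 percent in IUA, and 0.278, 0.121 and 0.0932 percent in Sham. Every treated library thus lay below every IUA library, and every IUA library below every Sham library. In sorted bulk RNA, fewer muscle cells and less RNA per muscle cell cannot be told apart.

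The actins and myosin form the filaments. Acta2, smooth muscle alpha-actin (chromosome 19, 34241090 to 34255590, mm10), stood at 52.1, 90.5 and 94.6 FPKM in primed MSC, 92.1, 71.4 and 34.2 in control MSC, 118, 84.5 and 113 in IUA, and 472, 183 and 142 in Sham. The lowest Sham library was above the highest of the other 9, while the treated and IUA libraries overlapped. Actg2, the gamma-actin of visceral smooth muscle (chromosome 6, 83512905 to 83536265), stood at 18.2, 35.7 and 26.4 FPKM in primed MSC, 13.4, 27.2 and 15.5 in control MSC, 52.3, 44.3 and 56.7 in IUA, and 230.1, 63.7 and 40.9 in Sham. For Actg2 both treated groups lay wholly below IUA and Sham, and Sham replicate 3 fell below all 3 IUA libraries. Myh11, the smooth muscle myosin heavy chain (chromosome 16, 14194535 to 14291372), was at 10.2, 15.7 and 13.5 FPKM in primed MSC, 10.97, 14.1 and 4.70 in control MSC, 22.7, 18.1 and 20.3 in IUA, and 78.4, 37.6 and 24.5 in Sham. Its treated groups overlapped each other but neither IUA nor Sham, and IUA and Sham did not overlap.

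The open reading frames of Acta2 and Actg2 matched at 84.2 percent of aligned bases, and that of Acta2 matched the skeletal actin Acta1 at 85.4 percent. How fragments shared between such copies were assigned is not given in the sources used here, so the split among actins is less certain than the level of the other genes.

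Among proteins that bind or steady the actin filament, Cnn1, which encodes calponin 1 (chromosome 9, 22099216 to 22109630), had 26.9, 52.4 and 44.6 FPKM in primed MSC, 25.5, 36.1 and 15.9 in control MSC, 75.1, 58.0 and 53.0 in IUA, and 283, 124 and 92.6 in Sham. Tagln, transgelin or SM22-alpha (chromosome 9, 45929619 to 45936058), had 19.8, 28.2 and 24.8 FPKM in primed MSC, 26.6, 30.2 and 14.1 in control MSC, 52.1, 43.9 and 49.2 in IUA, and 185, 68.0 and 47.4 in Sham. For both genes the treated libraries lay below all IUA libraries. IUA and Sham overlapped for Tagln and not for Cnn1. Cald1, caldesmon (chromosome 6, 34598500 to 34775473), which also has a shorter form in cells other than muscle, was the exception in Sham, where its libraries nearly coincided. It had 15.9, 20.2 and 23.8 FPKM in primed MSC, 26.7, 20.0 and 13.7 in control MSC, 36.9, 40.3 and 43.3 in IUA, and 90.2, 80.5 and 81.5 in Sham. Lmod1, leiomodin 1, which starts new actin filaments in smooth muscle, was the lowest member, at 0.37, 0.96 and 0.76 FPKM in primed MSC, 0.79, 0.73 and 0.26 in control MSC, 1.49, 1.36 and 1.21 in IUA, and 3.92, 1.68 and 1.63 in Sham.

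Mylk, the myosin light chain kinase that starts contraction (chromosome 16, 34745210 to 35002420), had 9.26, 14.7 and 10.8 FPKM in primed MSC, 7.48, 9.69 and 3.85 in control MSC, 21.0, 14.7 and 20.3 in IUA, and 66.0, 30.3 and 21.8 in Sham. Its control MSC libraries lay below IUA, and 1 primed MSC library fell within the IUA range. Des, the muscle intermediate filament desmin (chromosome 1, 75360329 to 75368579), had 6.61, 9.57 and 9.16 FPKM in primed MSC, 6.13, 8.69 and 11.8 in control MSC, 13.6, 11.1 and 11.6 in IUA, and 43.9, 22.1 and 13.4 in Sham. Synpo2, an actin-binding protein of the Z-disc and dense bodies also called myopodin, had 1.59, 2.75 and 2.27 FPKM in primed MSC, 1.19, 1.81 and 0.70 in control MSC, 2.89, 2.60 and 3.85 in IUA, and 11.2, 6.10 and 5.61 in Sham. Both had their highest values in Sham, but Des in control MSC replicate 3 reached the IUA range, Des in IUA replicate 1 lay above Sham replicate 3, and Synpo2 in primed MSC overlapped IUA. The exons of Tagln, Des and Mylk overlap antisense genes, and those of Tagln also overlap Pcsk7 by 108 bases. Use of strand in the counting is not given, so fragments from these overlaps may be included.

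**Figure D1:**
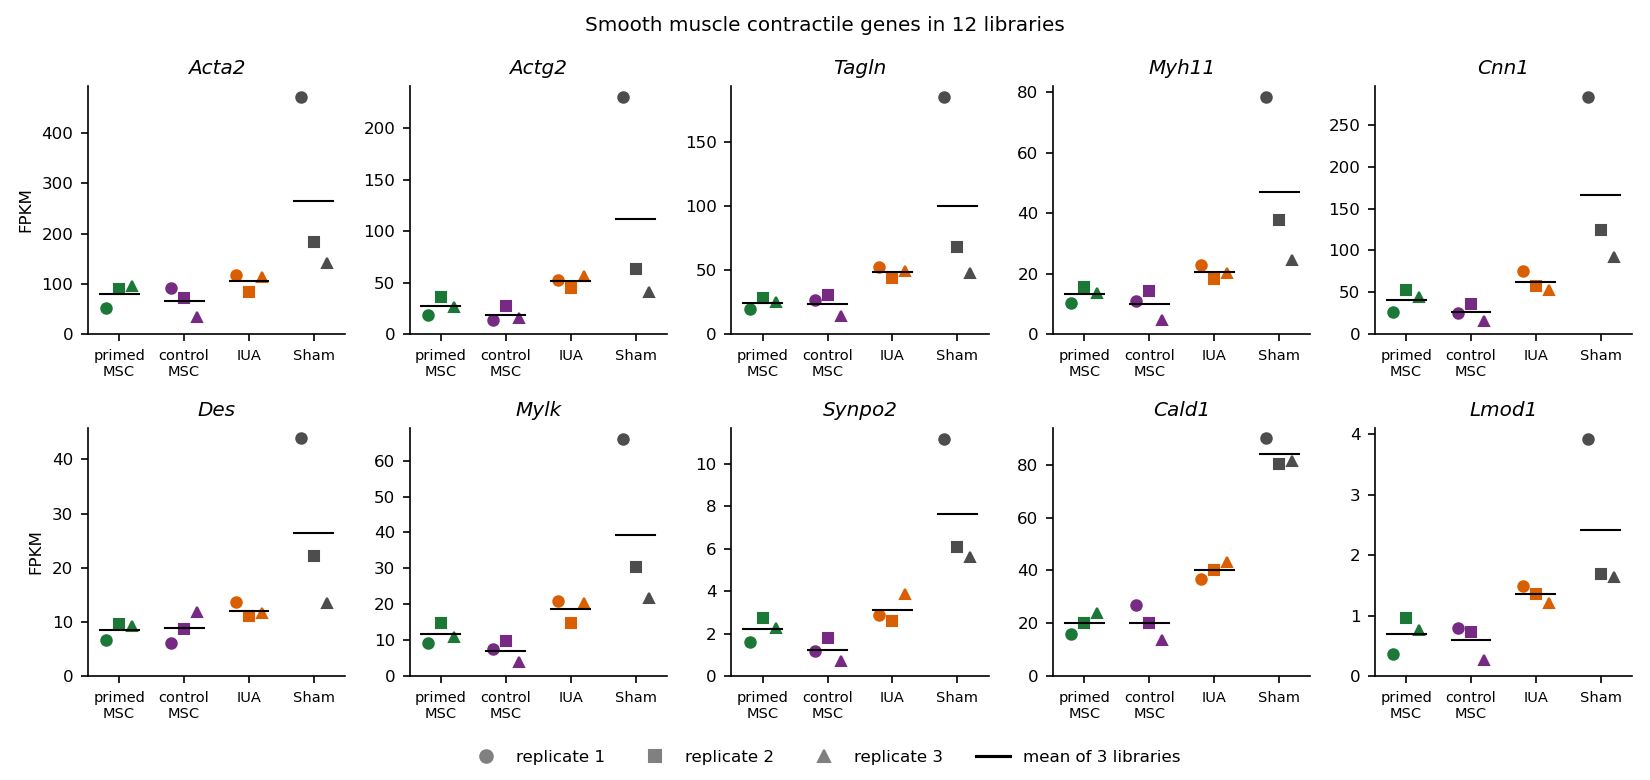
FPKM of each of the 10 genes (vertical axis, linear from 0) in the 12 libraries, by group, with marker shape for the replicate number and a line at the mean of 3 libraries. Sham replicate 1 is the highest point of every panel, at 472 FPKM for Acta2 and 3.92 FPKM for Lmod1, whereas the 3 Sham points of Cald1 lie between 80.5 and 90.2 FPKM.

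Sham replicate 1 stood apart from its group in these genes. Its level was 4.40 times the mean of the other Sham libraries for Actg2, 3.21 times for Tagln and 2.91 times for Acta2. It was 2.37 to 2.62 times that mean for Myh11, Cnn1, Des, Mylk and Lmod1, 1.91 times for Synpo2 and 1.11 times for Cald1. Lists of other cell types differed in whether they were highest in that library. Pericytes, the mural cells of capillaries, took 0.0707, 0.104 and 0.0659 percent in Sham replicates 1 to 3, but single pericyte markers differed. Rgs5 was at 199, 289 and 82.4 FPKM and Anpep at 143, 211 and 238 FPKM. Mcam, named after its values were seen, was highest in replicate 1, at 11.9, 6.80 and 5.11 FPKM. Rgs5 and Anpep made up most of the pericyte sum, which was 333 FPKM in Sham replicate 3. Uterine epithelium took 1.55, 2.53 and 2.82 percent, lowest in Sham replicate 1. Stroma took 0.197, 0.114 and 0.142 percent and endothelium 0.0922, 0.0739 and 0.0535 percent, both highest in Sham replicate 1, and myofibroblast genes took 0.0242, 0.0163 and 0.0146 percent, where the contractile genes took 0.278, 0.121 and 0.0932 percent. The comparisons of these contractile genes with Sham are therefore given below with and without that library. Results of the further gene lists against Sham, Myocd included, and the correlations are given only with it. How far they rest on that library was not tested.

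**Figure D2:**
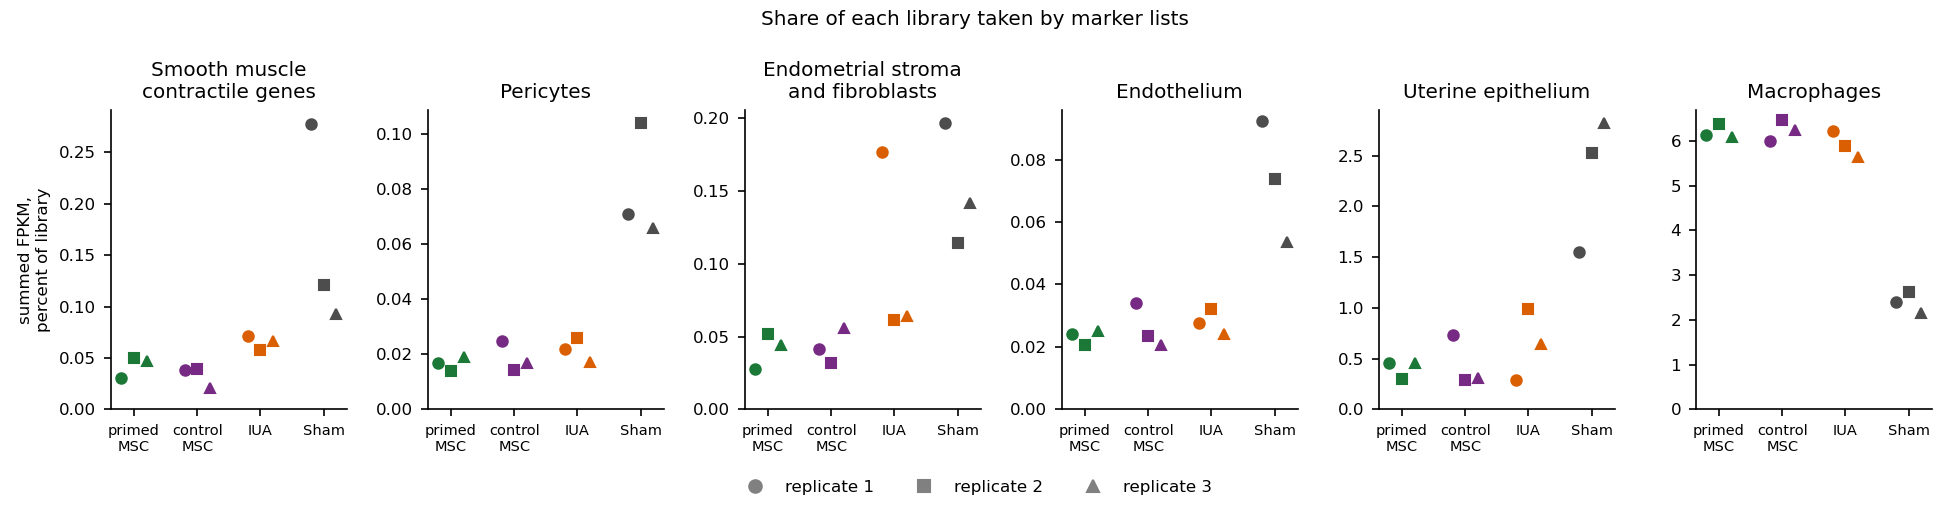
Summed FPKM of 6 gene lists as a percent of the library's total FPKM (vertical axes start at 0 and differ in scale), by group and replicate. The contractile genes fall stepwise, with 0.0579 to 0.0714 percent in IUA between the treated groups and Sham, and the stromal genes, at 0.0613 to 0.177 percent in IUA, also lie above both treated groups there. The shares of pericyte and endothelial genes overlap among the 3 groups with the adhesion model.

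After treatment of the adhesion model, the full set of contractile genes was lower than in Sham. In control MSC against Sham all 10 genes fell, where 42.7 percent of all tested genes fell. The median log2 change, on the log2(FPKM + 1) scale that understates changes of low genes, was -1.99 for the members and -0.30 for all tested genes. Cnn1 averaged 25.9 ± 10.1 FPKM in control MSC and 167 ± 102 FPKM in Sham (SD, n = 3 each), a log2 change of -2.55 ± 0.39 (SE, limma adjusted p = 2.39e-04). Mylk fell to 7.01 ± 2.95 FPKM in control MSC, against 39.4 ± 23.5 in Sham (log2 change -2.25 ± 0.37, limma adjusted p = 3.52e-04). Cald1 had the smallest p, with 20.1 ± 6.54 FPKM in control MSC and 84.1 ± 5.33 in Sham (log2 change -2.06 ± 0.20, limma adjusted p = 1.57e-05). On that scale Des and Lmod1 had the smallest changes, at -1.36 ± 0.34 and -1.05 ± 0.24. Lmod1, the lowest member, averaged 0.593 ± 0.290 FPKM in control MSC and 2.41 ± 1.31 in Sham. All 10 genes had every control MSC library below every Sham library, as had 49.6 percent of tested genes, and none lay wholly above Sham, as did 17.0 percent of tested genes. Without Sham replicate 1 all 10 still fell, with log2 changes from -2.08 for Cnn1 to -0.75 for Lmod1 and those of Tagln at -1.30 and Actg2 at -1.47.

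Primed MSC against Sham gave the same count, with 10 of 10 genes lower, beside 45.0 percent of all tested genes. The median log2 change was -1.60 for the members and -0.33 for all tested genes, and these comparisons share the Sham libraries. Every primed MSC library lay below every Sham library in all 10, as in 50.6 percent of tested genes. Cald1 averaged 19.9 ± 3.98 FPKM in primed MSC, a log2 change of -2.04 ± 0.20 against Sham (limma adjusted p = 1.35e-05). Cnn1 averaged 41.3 ± 13.1 FPKM in primed MSC and changed by -1.87 ± 0.39 (limma adjusted p = 0.00144). Tagln averaged 24.3 ± 4.22 FPKM in primed MSC and 100.2 ± 74.3 in Sham, a log2 change of -1.77 ± 0.40. The 7 remaining genes fell by log2 changes between -1.67 for Actg2 and -0.96 for Lmod1. Lmod1 was below FPKM 1 in every treated library, so it passed the filter through its IUA and Sham libraries. It was also called in both treated groups against Sham without a filter. Its call in primed MSC was lost with quantile normalization. Without Sham replicate 1 all 10 fell as well, by -1.99 for Cald1 and by -1.41 to -0.66 for the others.

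With the adhesion model alone fewer of the genes passed. In IUA against Sham 6 of 10 genes fell and none rose, a share close to the 45.0 percent of all tested genes that fell. The median log2 change was -0.96 for the members and -0.35 for all tested genes. Cald1 averaged 40.2 ± 3.24 FPKM in IUA and 84.1 ± 5.33 in Sham (log2 change -1.05 ± 0.20, limma adjusted p = 0.00112). Synpo2 averaged 3.11 ± 0.654 FPKM in IUA and 7.63 ± 3.08 in Sham (-1.02 ± 0.26, limma adjusted p = 0.00508), and Cnn1, Acta2, Myh11 and Des fell by log2 changes between -1.26 and -0.92. In 7 genes, all except Actg2, Tagln and Des, every IUA library lay below every Sham library, as in 47.7 percent of tested genes. Mylk (-0.90 ± 0.37, limma adjusted p = 0.0534), Tagln (-0.79 ± 0.40, 0.109), Actg2 (-0.72 ± 0.49, 0.228) and Lmod1 (-0.47 ± 0.24, 0.113) did not pass. Without Sham replicate 1 only Synpo2 and Cald1 fell, the median was -0.52, and Actg2 was at -0.01. Scaled to a common median ratio, where the median over all tested genes was -0.01, the same 2 genes fell. Without IUA replicate 3 they were again the 2 that passed, and without IUA replicate 2 there were 3.

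**Figure D3:**
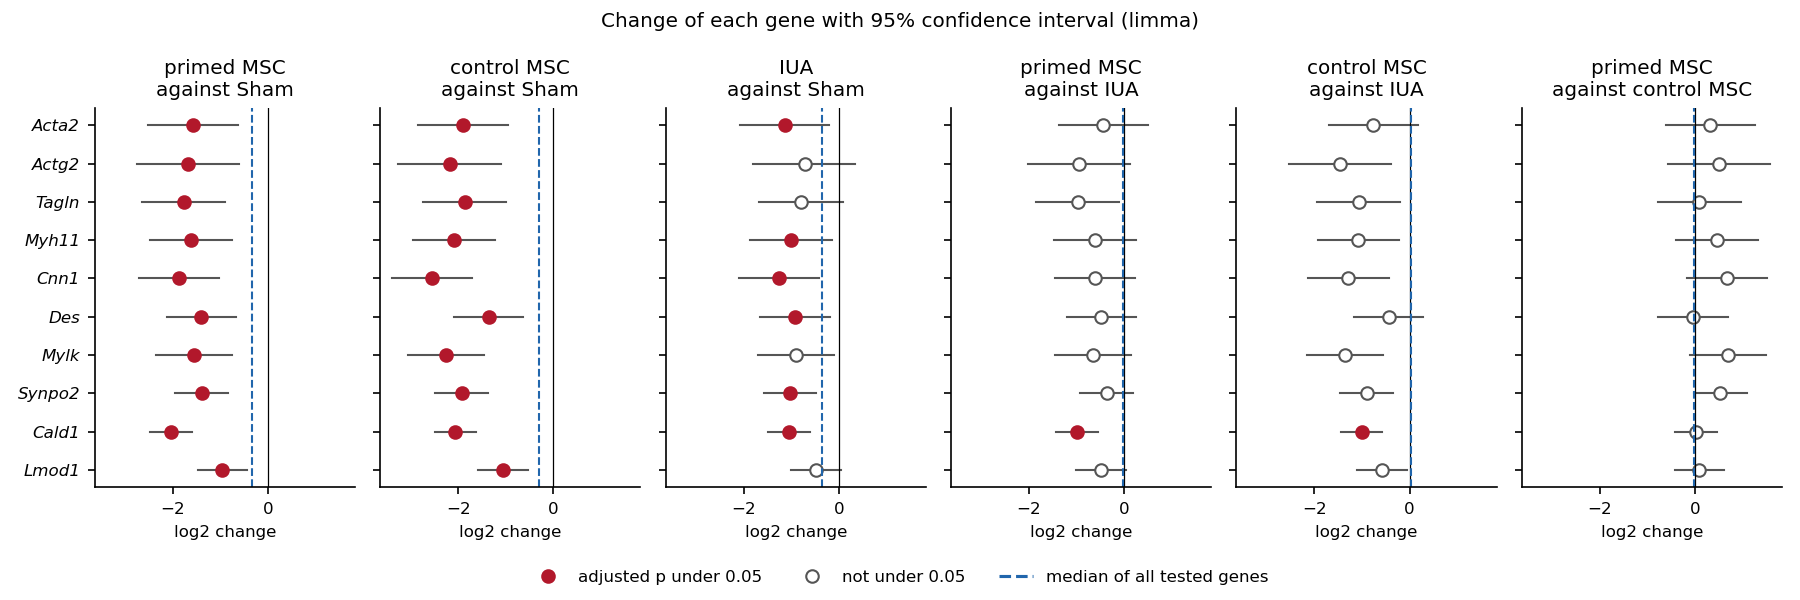
Log2 change of each gene (horizontal axis, log2(FPKM + 1) scale) in the 6 comparisons, with its 95 percent confidence interval from limma, filled points for genes with adjusted p under 0.05 and a dashed line at the median of all tested genes. All 10 points are filled in both comparisons of treated mice with Sham, 6 in IUA against Sham, and Cald1 alone in each comparison of a treated group with IUA.

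In control MSC against IUA 1 of the 10 genes passed, Cald1. All 10 log2 changes were negative, with a median of -1.04 against 0.02 for all tested genes. Cald1 fell to 20.1 ± 6.54 FPKM in control MSC, against 40.2 ± 3.24 in IUA (log2 change -1.01 ± 0.20, limma adjusted p = 0.0427), as 1 of 15 genes called lower of 11604, or 0.129 percent, and no member was among the 0.724 percent called higher. Actg2 averaged 18.7 ± 7.43 FPKM in control MSC and 51.1 ± 6.27 in IUA (-1.46 ± 0.49, limma adjusted p = 0.155). Mylk (-1.35 ± 0.37, limma adjusted p = 0.0935) and Cnn1 (-1.29 ± 0.39, 0.121) did not pass either. In 8 genes, all except Acta2 and Des, every control MSC library lay below every IUA library, as in 7.33 percent of tested genes. Members measured in 1 library share its cells, so the 8 are not separate observations. The call of Cald1 was lost with any library left out other than IUA replicate 1 or control MSC replicate 1, and with only the groups compared (without Sham replicate 1, adjusted p = 0.0503, Actg2 passed in its place at 0.0484). With 3 libraries a group, 0.1 is the smallest two-sided p that exact permutation allows.

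Primed MSC against IUA also gave 10 negative log2 changes, with a median of -0.61 against -0.03 for all tested genes. Cald1 fell to 19.9 ± 3.98 FPKM in primed MSC, against 40.2 ± 3.24 in IUA (-0.99 ± 0.20, limma adjusted p = 0.00700), where 6.97 percent of tested genes fell. This call held under each of the alternatives run. Tagln averaged 24.3 ± 4.22 FPKM in primed MSC and 48.4 ± 4.15 in IUA, without overlap (-0.98 ± 0.40, limma adjusted p = 0.106). Actg2 averaged 26.8 ± 8.76 FPKM in primed MSC and 51.1 ± 6.27 in IUA (-0.95 ± 0.49, 0.191). Both passed without Sham replicate 1 and in the fit to the compared groups alone, which gave 3 genes each time. Every primed MSC library was below every IUA library in 7 genes, as in 17.4 percent of tested genes. Acta2 (-0.44 ± 0.43) and Synpo2 (-0.37 ± 0.26) were nearest to no change.

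Between primed and control MSC no difference in these genes passed the test. None of the 10 was called, with 0.0345 percent of all tested genes called lower and 0.0776 percent higher, and none had an unadjusted p under 0.05 in limma. Mylk averaged 11.6 ± 2.82 FPKM in primed MSC and 7.01 ± 2.95 in control MSC, a log2 change of 0.70 ± 0.37 (limma adjusted p = 0.455). Cnn1 was at 0.68 with a 95 percent interval of -0.17 to 1.52, and Synpo2 at 0.53 with an interval of -0.02 to 1.09. For Cald1 the difference was 0.02 with an interval of -0.42 to 0.46, so a log2 difference of 1 in either direction lies outside it. For Acta2 the interval ran from -0.62 to 1.26 and such a difference lies within it. Without control MSC replicate 3 the sign of Acta2, Tagln, Des, Cald1 and Lmod1 turned.

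Ratios between members held closely in some pairs of genes and not in others. Des ran at 0.647, 0.610 and 0.677 times the FPKM of Myh11 in primed MSC, 0.559, 0.615 and 2.51 times in control MSC, 0.600, 0.610 and 0.569 times in IUA, and 0.560, 0.588 and 0.548 times in Sham. Control MSC replicate 3 alone broke this ratio. There Des was 1.59 times the mean of the other control MSC libraries, while the other 9 genes were at 0.342 to 0.763 times that mean. Cald1 also departed from Myh11, with a ratio of 1.15, 2.14 and 3.33 in Sham replicates 1 to 3. Myh11 kept to between 0.119 and 0.215 times Acta2 in all 12 libraries, over levels of Acta2 that differed 13.8-fold. Actg2 was less tied to Acta2, at 0.146, 0.381 and 0.452 times its FPKM in control MSC and at 0.289 to 0.488 times in Sham.

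**Figure D4:**
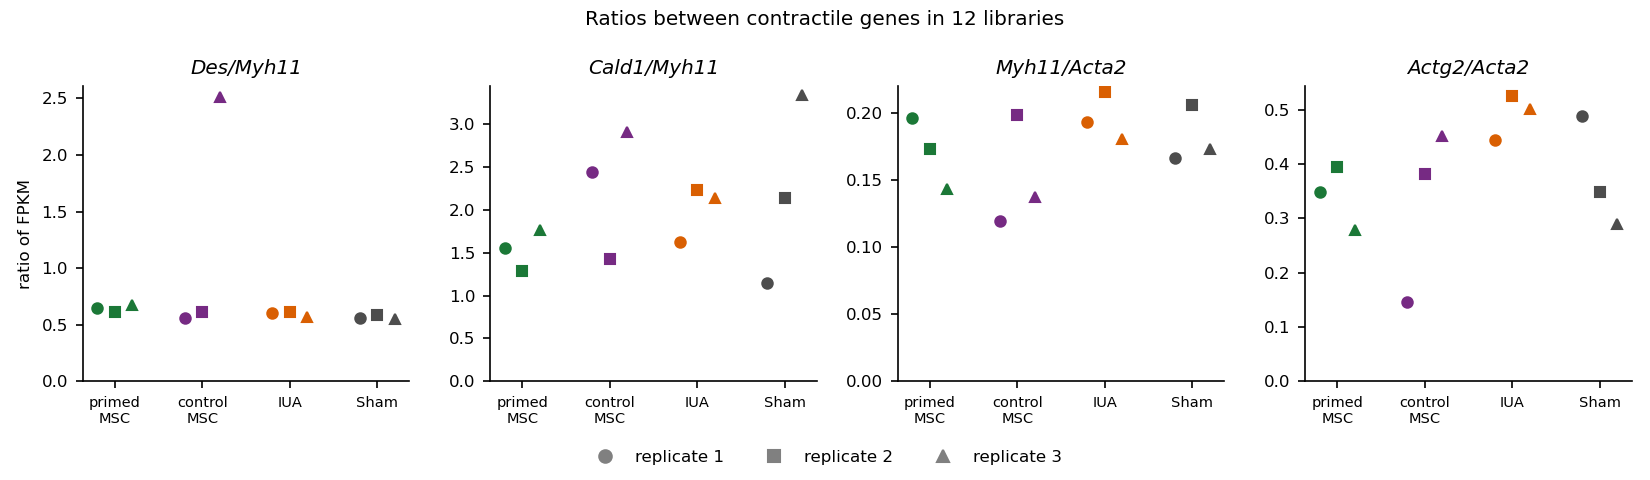
Ratio of FPKM between pairs of contractile genes (vertical axes start at 0) in the 12 libraries, by group and replicate. Des/Myh11 lies between 0.548 and 0.677 in 11 libraries and at 2.51 in control MSC replicate 3, and Cald1/Myh11 runs between 1.15 and 3.33 among the Sham libraries.

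The genes most like the members were found by the Pearson correlation of log2(FPKM + 1) with the members' mean over the 12 libraries, which share group differences and library composition. The highest values belonged to Tpm2, the tropomyosin of smooth muscle (r = 0.991), the troponin gene Tnnt2 (0.981), the potassium channel subunit Kcne4 (0.979) and the sarcomere-associated Pdlim3 (0.974). Rasl11b, Id4, Ndrg2, Myl9, Sspn and Pcp4 followed at 0.960 to 0.972. Tpm2 had 14.2, 27.6 and 23.0 FPKM in primed MSC, 21.8, 21.6 and 13.2 in control MSC, 40.1, 30.5 and 36.5 in IUA, and 163, 62.9 and 44.2 in Sham. Myl9, the regulatory light chain that Mylk phosphorylates, had 65.6, 105 and 100.2 FPKM in primed MSC, 120, 105 and 45.4 in control MSC, 175, 121 and 166 in IUA, and 573, 213 and 152 in Sham. Both thus repeated the high Sham replicate 1 and the low control MSC replicate 3. After each group's mean was taken out, Cald1 (0.473) and Des (0.598) followed the mean of the other members least, and Tagln (0.981) and Mylk (0.963) most.

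Of 33 further genes of the contractile apparatus 30 were tested. They gave 25 lower and 1 higher in primed MSC against Sham, 27 lower and 1 higher in control MSC against Sham, and 21 lower and 1 higher in IUA against Sham, with medians of -1.06, -1.16 and -0.82. Beside these counts and those of the lists below, 45.0, 42.7 and 45.0 percent of all tested genes fell in the same comparisons. Against IUA 7 fell and 1 rose in primed MSC, 1 fell in control MSC, and none passed between primed and control MSC. Hspb1, a small heat shock protein found in many cell types, fell in primed MSC to 125, 120 and 151 FPKM, against 230.4, 237 and 190.0 in IUA (-0.73 ± 0.16, limma adjusted p = 0.0108). The small heat shock protein gene Hspb6 and Tgfb1i1, a focal adhesion adaptor also called Hic-5, fell in all 3 groups against Sham, by -1.31 to -1.70 and by -1.45 to -1.98. Against IUA their changes in primed and control MSC did not pass, at -0.40 and -0.11 for Hspb6 and -0.12 and -0.53 for Tgfb1i1. Hspb6 in primed MSC, at 2.08, 2.09 and 2.28 FPKM, still lay wholly below IUA, at 2.38, 4.09 and 3.15. Tgfb1i1 in control MSC, at 3.27, 3.03 and 1.83 FPKM, lay wholly below IUA, at 4.85, 3.74 and 4.29. Hspb6 in control MSC and Tgfb1i1 in primed MSC overlapped IUA. Of all tested genes 17.4 percent lay wholly below IUA in primed MSC and 7.33 percent in control MSC.

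Among 23 genes of the muscle cell membrane and calcium handling 16 were tested, with 14 lower and 1 higher in primed MSC against Sham, 15 lower in control MSC against Sham and 11 lower in IUA against Sham. Against IUA 4 fell in primed MSC and none in control MSC, and none passed between the treated groups. Itpr1, the calcium release channel of internal stores, had 5.27, 4.74 and 4.91 FPKM in primed MSC, 4.10, 4.85 and 4.01 in control MSC, 4.61, 4.85 and 4.53 in IUA, and 12.7, 13.1 and 10.5 in Sham, a single step between Sham and the rest. Cavin1 and Cavin2, coat proteins of the membrane pits called caveolae, fell in primed MSC against IUA by -0.91 ± 0.23 and -1.07 ± 0.25 (limma adjusted p = 0.0168 and 0.0127). Kcnma1, the calcium-activated potassium channel, fell in all 3 groups against Sham, by -1.63 to -1.95.

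The table held 16 regulators of the smooth muscle programme, and 13 of them were tested, with 7 lower and 2 higher in primed MSC against Sham, 9 lower in control MSC against Sham, and 10 lower and 1 higher in IUA against Sham. Against IUA 3 fell and 2 rose in primed MSC, none passed in control MSC, and none between the treated groups. The co-activator gene Mrtfa, which carries actin signals to SRF in many cell types, rose to 9.84, 10.6 and 8.90 FPKM in primed MSC, against 2.55, 2.59 and 1.17 in IUA (1.83 ± 0.20, limma adjusted p = 4.67e-04). The transcription factor gene Mef2d rose as well, to 20.5, 22.0 and 21.8 FPKM in primed MSC against 8.57, 9.32 and 6.24 in IUA (1.33 ± 0.15, limma adjusted p = 4.69e-04). Not all co-activator genes rose. Mrtfb, named after its values were seen, was lower, at 3.37, 3.96 and 5.31 FPKM in primed MSC against 7.36, 7.57 and 8.63 in IUA. Contractile genes had log2 changes of -0.99 to -0.37 in that comparison. Wwtr1 and Yap1, co-activators also active in epithelium and stroma, fell in IUA against Sham by -1.28 ± 0.16 and -1.96 ± 0.25. Myocd, the muscle-restricted co-activator itself, is named for its role after its values were seen. It ran between 0.54 and 1.61 FPKM in primed MSC, 0.37 and 1.23 in control MSC, 0.73 and 1.65 in IUA, and 1.86 and 5.11 in Sham, falling in each group against Sham (limma adjusted p = 0.0202, 0.00415 and 0.0140 for primed MSC, control MSC and IUA).

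Relatives of the members that serve cells other than smooth muscle were set beside them. Of 12 tested, none passed in control MSC against IUA and their median was 0.03, beside -1.04 for the contractile genes, a contrast that was not tested as such. In primed MSC against IUA 3 rose and 1 fell. Against Sham 7 fell in primed MSC, 9 fell and 1 rose in control MSC, and 10 fell and 1 rose in IUA. Actg1, the cytoplasmic gamma-actin, had 715, 630 and 672 FPKM in primed MSC, 751, 589 and 542 in control MSC, 460, 789 and 698 in IUA, and 1109, 1517 and 1795 in Sham, lowest among Sham libraries in replicate 1. Cnn3, the calponin of non-muscle cells, was likewise lowest of Sham in replicate 1, at 460 FPKM against 589 and 621. Myh9, a non-muscle myosin heavy chain, and Cnn2, a calponin of blood and other cells, rose in primed MSC against IUA by 0.85 ± 0.16 and 0.66 ± 0.14 (limma adjusted p = 0.00529 and 0.00887).

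Striated muscle genes were near the lower limit of the table. Of 18 listed, 4 reached the filter, and Myh1, Myh4, Myh6, Myh7 and Myog were listed at 0 in all 12 libraries. Acta1, close in sequence to Acta2, had 1.24, 2.93 and 2.60 FPKM in primed MSC, 0.98, 3.36 and 1.62 in control MSC, 5.95, 4.32 and 5.94 in IUA, and 18.4, 6.94 and 5.99 in Sham. With Tnnt2 and Mylpf it fell in both treated groups against Sham, and none of the 4, Tnni2 included, passed in the other comparisons.

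Lists of markers of further cell types differed in how many genes fell or rose against Sham, and their part in the contractile results was not tested. In primed MSC, control MSC and IUA against Sham, 12, 12 and 12 of 12 epithelial genes fell, as did 10, 10 and 9 of 10 endothelial, 6, 7 and 6 of 9 pericyte, and 4, 2 and 2 of 5 mesothelial genes. The stroma and fibroblast list had 7, 8 and 5 of 13 lower with 0, 1 and 1 higher, and the myofibroblast list 3, 3 and 2 of 9 lower with Fn1, fibronectin, higher each time. Of all tested genes 45.0, 42.7 and 45.0 percent fell in these comparisons. The myofibroblast list did not exceed that share in any group, nor did the mesothelial list in control MSC and IUA or the stromal list in IUA. Of 12 macrophage genes 12, 12 and 10 rose. In control MSC against IUA none of the epithelial, endothelial, pericyte, stromal, myofibroblast or mesothelial genes passed, and their medians were -0.36, -0.12, -0.15, -0.26, -0.25 and -0.55, while 1 macrophage gene, Adgre1, rose. In primed MSC against IUA 2 endothelial, 3 stromal and 1 myofibroblast gene fell, 5 macrophage genes rose, and no epithelial, pericyte or mesothelial gene passed. The medians there were -0.20 for epithelial, -0.28 for endothelial, -0.13 for pericyte, -0.48 for stromal, -0.40 for myofibroblast and -1.20 for mesothelial genes, beside -0.61 for the contractile genes. None of these genes passed between primed and control MSC. Summed pericyte genes took 0.0138 to 0.0191 percent of the libraries in primed MSC, 0.0141 to 0.0248 percent of those in control MSC and 0.0173 to 0.0258 percent of those in IUA, ranges that overlapped. Stromal genes took 0.0276 to 0.0516 percent in primed MSC, 0.0319 to 0.0560 percent of control MSC libraries and 0.0613 to 0.177 percent of IUA libraries. On that sum every treated library lay below every IUA library, as for the contractile genes. Dcn alone gave 154 of the 338 FPKM in IUA replicate 2. By mean log2 level the stromal list overlapped, at 2.95 in IUA replicate 3 and 3.34 in control MSC replicate 3. The contractile genes stayed apart by that measure, at 4.36 or more in IUA and at most 4.10 in treated libraries. So did the further apparatus genes, at 4.15 or more in IUA and at most 4.10 in treated libraries. Membrane and calcium genes (2.11 or more, at most 2.07) and striated muscle genes (0.48 or more, at most 0.39) were apart as well. Regulators and the non-muscle relatives overlapped. The summed striated muscle genes also lay lower in every treated library than in every IUA library. Their sums were 5.13 to 6.91 FPKM in primed MSC, 4.85 to 8.19 in control MSC and 11.5 to 14.08 in IUA. Acta1 and Tnnt2 gave 5.95 and 2.95 of the 13.15 FPKM in IUA replicate 1. Among the tested genes Acta1, Tnnt2 and Mylpf each showed this order. Tnni2 did not, at 2.06 FPKM in control MSC replicate 3 against 0.70 to 1.27 in IUA.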

How the data were processed

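FPKM values were computed by the authors and deposited as 1 table with 1 column per library, rounded to 2 decimals. Per the submitters' processing notes the tools were fastp, HISAT2, StringTie, RSEM and DESeq2 with the build mm10, and their roles and versions are not given. Ratios of low values between libraries showed no step from which depth could be read, so the depth is unknown and no count test was used. The fit used limma 3.58.1 under R 4.3.3 on log2(FPKM + 1), all 12 libraries together, 1 mean per group and a variance trend. All tests were two-sided. The fit was tested on simulated data. The 10 members and the lists were chosen with earlier results of these data known, the lists from textbook knowledge. Named genes are the members, up to 4 genes per list with the smallest F test p, and the 10 genes most correlated with the members' mean. Gene positions come from GENCODE M21. Alternatives covered pseudocount, filter, scaling, samples in the fit, a replicate block, robust variances and leaving out each library, and a correction for transcript GC content was added after seeing the data. Single genes outside that rule are marked where they are named. A gene that the rule names is not reported here.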

Additional observations from a re-analysis of the deposited data

How the results depend on the processing

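In control MSC and primed MSC against Sham, 9 or 10 members fell under every alternative in which they were tested (at a filter of FPKM 5 Lmod1 was not tested), and the direction of every member was kept. The F test passed for 9 or 10 members. In IUA against Sham all log2 changes stayed negative, while 6 calls became 3 without a filter, 2 with median-ratio scaling, 2 with quantile normalization and 2 with the GC correction, and 2 to 9 when single libraries were left out. In control MSC against IUA the 1 call became 0 without a filter, 0 with only the groups compared, and 0 to 1 with single libraries left out. In primed MSC against IUA the 1 call became 3 with only the groups compared and 1 to 3 with single libraries left out. Between primed and control MSC no member passed under any alternative, and the log2 change of Des was 0.00 with TPM scaling against -0.04. With single libraries left out, that comparison gave -0.09 to 0.62 for Acta2, -0.23 to 0.29 for Tagln, -0.25 to 0.17 for Des, -0.22 to 0.24 for Cald1 and -0.07 to 0.24 for Lmod1. The cause of these shifts was not tested. All tested genes had a median of -0.35 in IUA against Sham and -0.01 with median-ratio scaling, where 2572 fell and 2656 rose in place of 5226 and 1291 (control MSC against Sham 2803 and 3042 in place of 4960 and 1632, primed MSC against Sham 2913 and 3240 in place of 5219 and 1684). Over all genes the 99 calls of control MSC against IUA became 29 without a filter, 58 with median-ratio scaling, 61 with the GC correction and 16 with only the groups compared. With single libraries left out it ran from 5 (without control MSC replicate 2) and 6 (without control MSC replicate 3) to 329 (without IUA replicate 1), with 0 to 74 genes lower in place of 15. The 2219 of primed MSC against IUA became 1343 with only the groups compared and 1156 to 2557 with single libraries left out, and the 13 between the treated groups ranged from 0 to 233. The deviations of same-numbered libraries correlated at -0.293 to 0.288, above 0.1 in 3 of 18 pairs. Without differently numbered pairs to set beside them, these values do not decide whether replicate numbers pair the libraries. With the replicate block 6, 0, 1, 0, 10 and 10 members were called in IUA against Sham, control MSC against IUA, primed MSC against IUA, primed against control MSC, and control and primed MSC against Sham, and 43 genes in all in control MSC against IUA.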
